A study of Mus musculus with 20 samples.

Results

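The clustered protocadherins are cell-surface adhesion proteins encoded in 3 neighbouring gene clusters, and their transcripts were followed here in whole brains of Katnal2-KO and WT mice at P21 and P70. Members were chosen by symbol alone, as every gene of the deposited table whose mouse symbol begins with Pcdha, with Pcdhb and a number, or with Pcdhg. This gave 57 of the 19463 genes in the table. The alpha cluster supplied 14 members (the 12 alpha alternates, Pcdhac1 and Pcdhac2), the beta cluster 21, and the gamma cluster 22 (12 gamma A, 7 gamma B, Pcdhgc3, Pcdhgc4 and Pcdhgc5). The last 2 alpha members and the last 3 gamma members are known as the C-type members. GENCODE M21 lists 58 genes of these names, and Pcdhb1 was not analysed here. All 57 passed the filter on low values (a mean of at least 10 over the mice fitted) in every comparison.

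All mice were male C57BL/6J, sampled at 3 weeks (P21) or 10 weeks (P70), with 5 Katnal2-KO and 5 WT mice at each age and 20 in all. Katnal2 encodes a katanin-like protein, related to proteins that sever microtubules. The KO line came from Katnal2tm1a(EUCOMM)Wtsi embryonic stem cells, was crossed with Protamine-Flp mice to give the floxed allele and lost exon 3 after early embryos were exposed to HTNC, a cell-permeable Cre recombinase, so the deletion is constitutive and not limited to a cell type. The WT mice carry neither the allele nor the deletion, and both genotypes were housed together as littermates.

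In each neuron, a small set of alpha, beta and gamma isoforms is expressed by promoter choice, and the resulting combination of surface proteins lets a neuron recognise and avoid its own branches. Each alternate promoter carries a binding site for CTCF, which with cohesin brings the promoter to a distant enhancer, and DNA methylation keeps unchosen promoters silent. The C-type genes are used more uniformly than the alternates: Pcdhac2 is needed for the even spread of serotonergic axons, Pcdhgc4 for the survival of interneurons, Pcdhgc3 acts on dendrites through Axin1, and Pcdhgc5 binds the GABA-A receptor.

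In GRCm38 all members lie on the plus strand of chromosome 18. The alpha cluster spans positions 36930184 to 37187661, the beta cluster 37294812 to 37524479 and the gamma cluster 37661793 to 37841873. Katnal2 is on the same chromosome, 39.1 Mb away. Each alpha member joins its own large first exon to the same 3 constant exons (2860 bases in the annotation), and each gamma member does so with another set of 3 (2119 bases in most). Beta members are single-exon genes. Reads from constant exons therefore have no unique origin. Of the 31-base words in the annotated transcripts, a beta member shared none with any other gene for 77.5% to 94.81%, whereas a gamma member was unique for 32.17% to 58.28% and an alpha member other than Pcdha4 for at most 51.64%. Pcdha4 was unique for 2.18% only, because a read-through gene model holds the same sequence, and its values are uncertain for that reason. A pair of gene IDs carries the symbol Pcdha11, and they are kept apart here as Pcdha11 (ENSMUSG00000007440) and Pcdha11 (ENSMUSG00000102206). Antisense transcripts overlap the clusters, and the library kit does not mark strand, so reads from either strand cannot be told apart.

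Values are normalized counts, the authors' Salmon estimates after DESeq2 normalization of all 20 mice together. The normalized values of a mouse summed to between 27310523 and 28423042, and these sums do not give the sequencing depth. The count of Katnal2, taken over the whole gene and so not limited to the deleted exon, ran from 78.1 to 96 in P21 KO mice and from 99.3 to 115 in P21 WT mice without overlap, and from 95.1 to 126 in P70 KO mice and from 101 to 142 in P70 WT mice with overlap. The P70 WT mouse numbered 5 and the P70 KO mouse numbered 5 stood apart from their groups over all genes. The SD of their log2 deviations from the group mean was 0.438 and 0.531, against 0.234 to 0.339 in the other 18 mice. The clustered protocadherins were among the genes concerned, so the numbers of calls, and the differences of the members described at length, are also given without these 2 mice. The libraries are from different animals. No sequencing batch is given, so age and any handling that went with it cannot be told apart.

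The C-type members of the gamma cluster and Pcdhac2 were the most abundant per kb of transcript. Averaged over the 20 mice, Pcdhgc5 stood at 832 normalized counts per kb, Pcdhgc3 at 791, Pcdhgc4 at 563 and Pcdhac2 at 329. The other C-type member, Pcdhac1, was at 43.2 per kb, within the range of the alternates. Together the 5 C-type members held 41.8% to 48.2% of the members' summed counts in P21 WT mice and 40.9% to 46.6% in P21 KO mice.

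Among the alternates the gamma A members were the highest as a class, with a median of 106 normalized counts per kb and a range from 56.8 (Pcdhga1) to 199 (Pcdhga11). Gamma B members followed with a median of 75.8, from 27.9 (Pcdhgb8, annotated as a polymorphic pseudogene) to 156 (Pcdhgb6). Alpha alternates had a median of 46, from 7.41 for Pcdha8, the lowest of all 57 members, to 98 for Pcdha12. Beta members had a median of 38.6, from 17.3 for Pcdhb4 to 96.8 for Pcdhb17. In the order of the 57 levels, the ranges over the 20 mice of every member and the next one overlapped. These ranges pool the mice, so their overlap does not mean that neighbours change order within a mouse. For example, Pcdhac2 averaged 313 to 344 per kb in the 4 groups, and Pcdhga11, the next in order, 184 to 216.

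**Figure D1:**
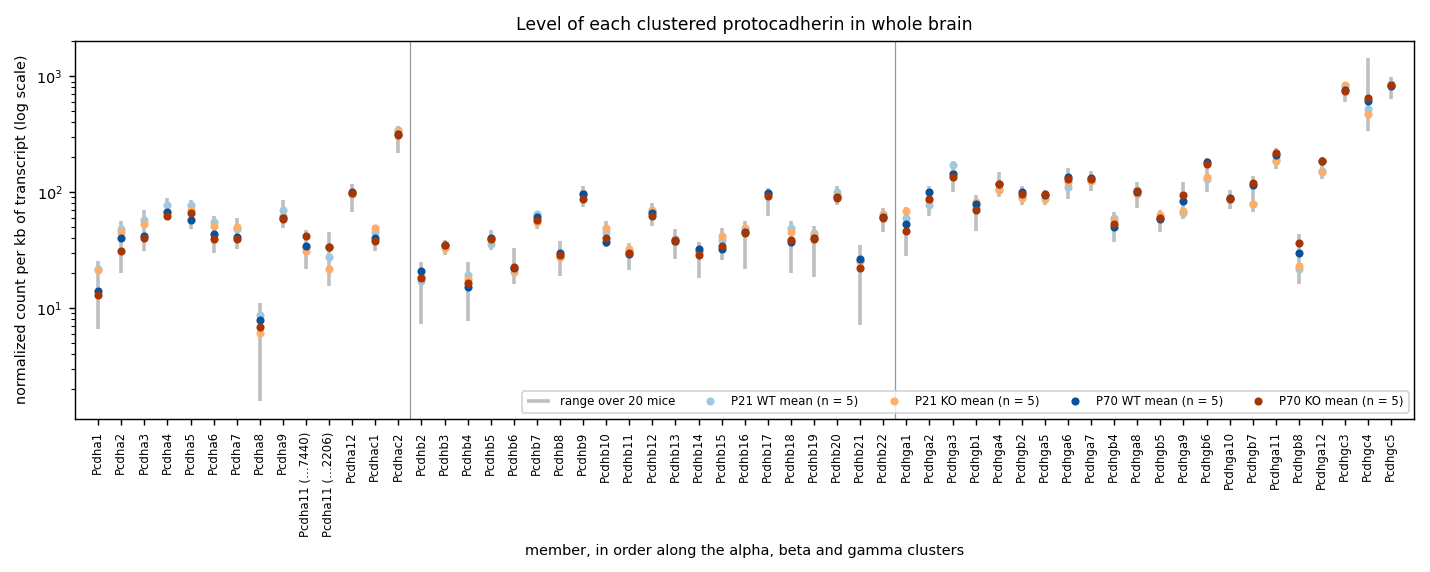
Mean normalized count per kb of transcript (log axis) of the 57 members in each of the 4 groups (5 mice each), with the grey line from the lowest to the highest of the 20 mice; members run along the alpha, beta and gamma clusters, separated by vertical lines. The gamma C-type members at the right end lie between 474 and 853 in the group means, and Pcdha8 is lowest.

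The 2 P70 mice numbered 5 differed from the other P70 mice across the clusters. Pcdhgc4 measured 2816, 1949, 1699, 1939 and 6838 normalized counts in P70 WT mice 1 to 5. In P70 KO mice it measured 1873, 2048, 2624, 2645 and 7228. The mouse numbered 5 was thus far above the others in both groups. In P21 WT mice Pcdhgc4 measured 1969, 1859, 4886, 1905 and 2405, with mouse 3 high, and in P21 KO mice 2054, 2577, 3188, 2089 and 1998. A retained intron is among the 3 annotated Pcdhgc4 transcripts, as it is among those of Pcdhgc3 and Pcdhgc5. Whether intron reads had a part in the Pcdhgc4 counts was not tested.

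Most other members moved the opposite way in these mice. Of the 57 members, 44 had their lowest value of the group in P70 WT mouse 5, where 34.5% of all genes tested did, and 48 had it in P70 KO mouse 5, against 37% of all genes. In P21 WT mouse 3 the number was 35, against 27.2% of all genes, and in P21 KO mouse 3 it was 31, against 29.5%. The beta cluster sum was 3084 in P70 WT mouse 5 and 4123 to 4441 in the other P70 WT mice, and it was 2780.2 in P70 KO mouse 5 and 4087 to 4313 in the rest. The alpha cluster sum was 3979 against 5138 to 5319 in P70 WT mice and 3771 against 5023 to 5295 in P70 KO mice. The C-type share of the members' counts was 51.1% in P70 WT mouse 5, against 39.6% to 43% in the other 4. In P70 KO mouse 5 it was 54.1%, against 40.4% to 42.3%. Of the 5 C-type members only Pcdhgc4 was high in these mice. The other 4 had their lowest value of the group there.

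The summed count of the 6 astrocyte markers was also lowest in these mice, at 74957 in P70 WT mouse 5 (89496 to 95138 in the others) and 63515 in P70 KO mouse 5 (89026 to 99803 in the others). In P21 WT mouse 3 it was 74615, against 84921 to 88995 in the others. In P21 KO mouse 3 it was 82279, which was not the lowest of its group (82220 to 91507).

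Other marker sums also stood highest in the 2 P70 mice numbered 5. The ependymal sum was 835 in P70 WT mouse 5 (493 to 662 in the others) and 923 in P70 KO mouse 5 (602 to 762). The sum for serotonin neurons was 891 (704 to 819) and 976 (654 to 796). For the choroid plexus it was 26916 (12301 to 21376) in WT, and 26912 in KO, where the others reached 26005. Oligodendrocyte markers in P21 KO mouse 3 summed to 582731, against 396497 to 472076 in the rest of its group. Whether any of these cell types had a part in the protocadherin values was not tested. The summed neuron markers, from 197153 to 209433 in P70 WT mice and 198465 to 207570.3 in P70 KO mice, covered a narrow range. In bulk tissue, fewer cells of a type and less RNA per cell cannot be told apart.

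**Figure D2:**
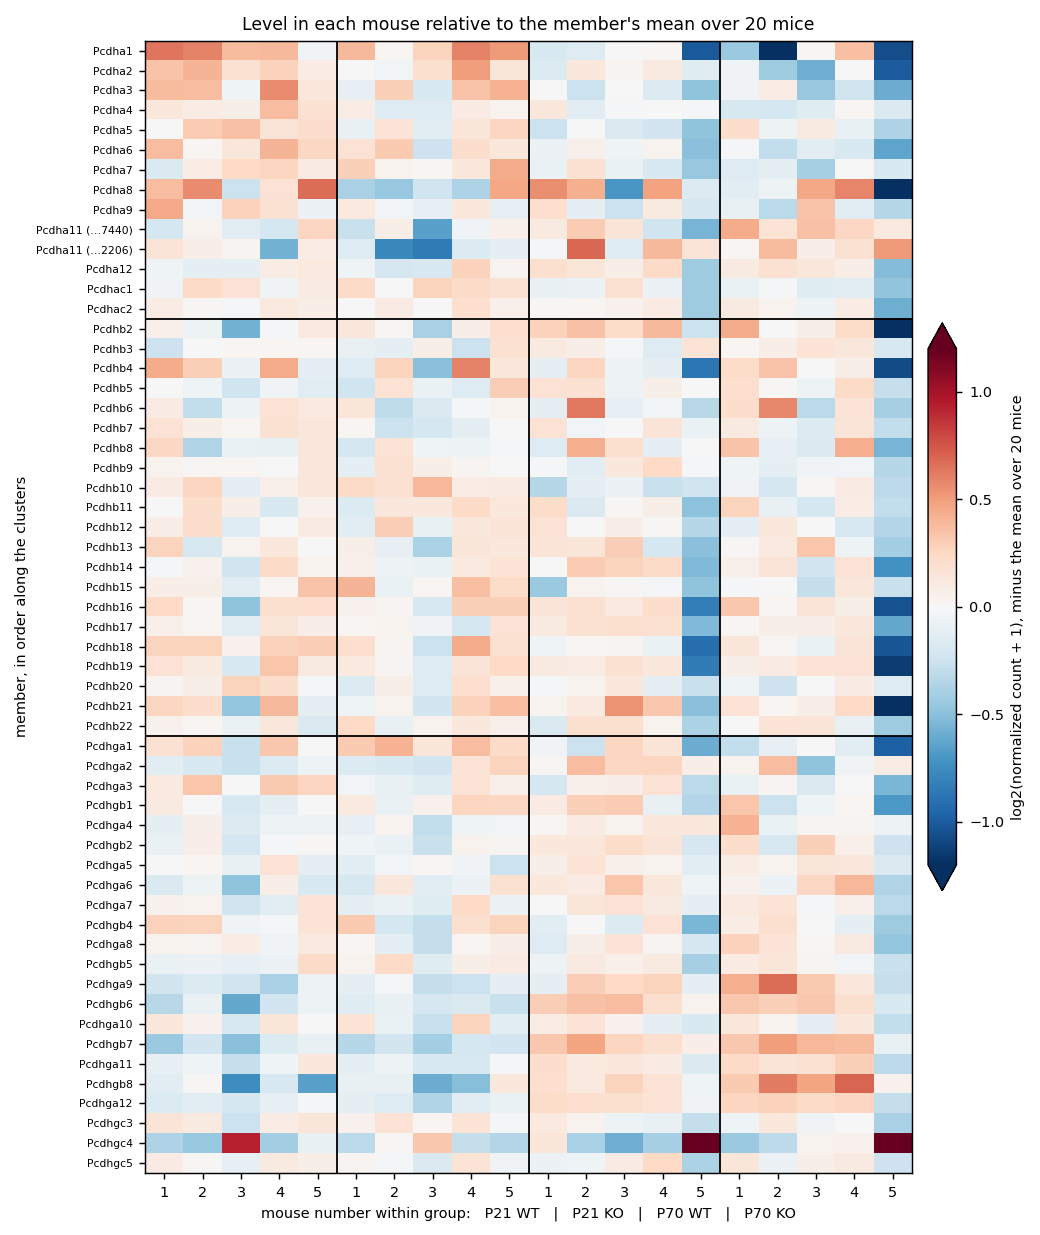
Log2(normalized count + 1) of each member in each of the 20 mice, minus the member's mean over the 20 mice (red higher, blue lower, colours end at ±1.2); columns are mice 1 to 5 of each group and rows follow the clusters. Both P70 mice numbered 5 are blue over most rows and red at Pcdhgc4, and the rows of the last gamma alternates, among them Pcdhgb6 and Pcdhgb7, are mostly blue at P21 and red at P70.

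The first question was which isoforms differed between P21 and P70 in WT brains. Of the gamma alternates 4 of 19 were higher at P70, of the alpha alternates 2 of 12 were lower, and the other members did not pass. At an adjusted p under 0.05 (limma, Benjamini-Hochberg over 17630 genes), 4 of the 57 members were higher at P70 (7.02%), where 4.62% of all genes were, and 2 were lower (3.51%), where 4.7% of all genes were. These shares are near the background. The members higher were Pcdhga2, Pcdhgb6, Pcdhgb7 and Pcdhga12, all gamma alternates, and those lower were the alpha alternates Pcdha3 and Pcdha5. No beta and no C-type member passed.

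Pcdhgb7, a gamma B alternate, measured 332, 387, 319.6, 404 and 425 in P21 WT mice and 567, 631, 544, 518 and 479.7 in P70 WT mice. The groups did not overlap. The mean was 374 ± 45.7 at P21 and 548 ± 56.6 at P70 (SD, n = 5 each), and the log2 difference was 0.55 (SE 0.10, adjusted p = 0.00497 by limma).

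Pcdhgb6, which lies 2 genes before Pcdhgb7, measured 572, 681, 468, 615 and 688 at P21 and 883, 917, 929.8, 819.5 and 741 at P70. Here too every P70 mouse was above every P21 mouse, by a log2 difference of 0.51 (SE 0.11, adjusted p = 0.0106). Both genes are homophilic adhesion isoforms of the same subfamily.

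Pcdhga2, near the start of the gamma cluster, measured 372, 356, 336, 361 and 389.8 at P21 and 409.9, 525, 481, 485 and 429 at P70. The groups were again separate, with a log2 difference of 0.36 (SE 0.09, adjusted p = 0.022). Pcdhga12, the last gamma A member, measured 748, 770.1, 727, 783 and 826 at P21 and 977, 968, 958, 943 and 816 at P70. Mouse 5 of the P70 group fell within the P21 range, and the log2 difference was 0.27 (SE 0.07, adjusted p = 0.0327).

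Pcdha5 measured 351, 431, 445, 389 and 403 in P21 WT mice and 292, 347, 309.8, 297 and 249 in P70 WT mice. All P70 mice were below all P21 mice, and the log2 difference was -0.44 (SE 0.10, adjusted p = 0.0173). Pcdha3 measured 327, 325, 243, 372 and 275 at P21 and 251, 209.6, 251, 224 and 179 at P70. These groups overlapped at 1 P21 mouse, with a log2 difference of -0.46 (SE 0.13, adjusted p = 0.0411).

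Some larger differences did not pass. Pcdha1, the first gene of the alpha cluster, measured 135, 130.4, 112, 113 and 83.4 at P21 and 75.8, 77.2, 85.6, 87.1 and 42.3 at P70, a log2 difference of -0.66 with a 95% interval from -1.09 to -0.23 (adjusted p = 0.0564). Pcdhgb8 was at 100.3 ± 22.7 at P21 and 138 ± 11.1 at P70 (SD, n = 5; log2 difference 0.48, adjusted p = 0.0686). Pcdhga9 had a log2 difference of 0.33 (adjusted p = 0.0785) and Pcdhga6 one of 0.29 (adjusted p = 0.108). Without overlap between groups, 3 members were higher (Pcdhga2, Pcdhgb6 and Pcdhgb7), where 5.2% of all genes were, and 2 were lower (Pcdha5 and Pcdhb18), where 5.6% were.

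The same comparison in Katnal2-KO mice used other animals and shared no mouse with the one in WT. Over all genes, however, deviations of same-numbered WT and KO mice from their group means correlated at 0.0749 to 0.705 at P70. At P21 they correlated at -0.00913 to 0.26. Again 4 members were higher at P70 (7.02%; 3.78% of 17641 genes were) and 1 was lower (1.75%; 4.53% of all genes were). The higher ones were Pcdhgb6, Pcdhgb7, Pcdhgb8 and Pcdha11 (ENSMUSG00000102206), and the lower one was Pcdhga1, the first gene of the gamma cluster. Pcdhgb6 and Pcdhgb7 were called higher in both genotypes, that is 2 of the 6 members called in WT (33.3%) and 2 of the 5 called in KO (40%). Over all genes the shared part was larger, at 58.5% of the WT calls and 65.7% of the KO calls. Without overlap between groups, 3 members were higher (both Pcdha11 IDs and Pcdhgb7), where 5.4% of all genes were, and 3 were lower (Pcdha7, Pcdhac1 and Pcdhga1), where 5.52% were.

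In KO mice Pcdhgb7 measured 357, 390.2, 342, 392 and 386 at P21 and 567, 644, 597, 591 and 427 at P70. The groups did not overlap, and the log2 difference was 0.58 (SE 0.11, adjusted p = 0.00545). Pcdhgb6 measured 649, 676, 627, 639 and 599 at P21 and 899, 876, 903, 819.9 and 632 at P70. The P70 mouse numbered 5 lay inside the P21 range, and the log2 difference was 0.36 (SE 0.10, adjusted p = 0.0438).

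Pcdhgb8 in KO mice measured 117, 117, 82.2, 87.2 and 136 at P21 and 155, 191, 173, 203 and 129 at P70. Only P70 mouse 5 was below the highest P21 mouse, and the log2 difference was 0.66 (SE 0.17, adjusted p = 0.0291). Pcdha11 (ENSMUSG00000102206), an alpha alternate near the 3′ end of the alternates, measured 136, 88.3, 83.3, 135 and 140.0 at P21 and 154, 197, 160.0, 172 and 216 at P70. Its groups did not overlap, with a log2 difference of 0.64 (SE 0.17, adjusted p = 0.0382).

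Pcdhga1 in KO mice measured 323, 348, 288, 336 and 304 at P21 and 211, 243, 259.7, 236 and 131 at P70. All P70 mice were lower, and the log2 difference was -0.60 (SE 0.16, adjusted p = 0.0422). In WT mice the same gene measured 294, 315, 216, 325 and 259.6 at P21 and 252, 217, 311, 289 and 171 at P70. Those groups overlapped (log2 difference -0.20, adjusted p = 0.49), and the difference between the genotypes' age changes was -0.40 with a 95% interval from -0.91 to 0.11.

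Other alpha alternates in KO mice missed the threshold. Pcdha1 measured 113, 87.4, 104, 131 and 123 at P21 and 63.1, 34.7, 87.8, 111 and 40.6 at P70, a log2 difference of -0.84 with a 95% interval from -1.46 to -0.22 (adjusted p = 0.093 by limma). Pcdha2 measured 215, 209, 244, 303 and 237 at P21 and 208, 159, 142, 213 and 107 at P70 (log2 difference -0.57, adjusted p = 0.0751). In both, the P70 values were spread wider than the P21 values and overlapped them at the top. Pcdha7 (-0.35, adjusted p = 0.068) and Pcdha11 (ENSMUSG00000007440; 0.43, adjusted p = 0.0816) were separate between ages and also missed it.

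Pcdha12 and Pcdhga11 did not pass in either genotype with all mice. Pcdha12, the highest alpha alternate per kb, measured 499, 482, 478, 552 and 560.2 in P21 WT mice and 592, 573, 547, 607 and 384 in P70 WT mice. Only mouse 5 of the P70 group was below the P21 range, and the 95% interval of the log2 difference ran from -0.20 to 0.31. Pcdhga11, the highest gamma A member, measured 878, 911, 776, 908 and 1025 at P21 and 1088, 1024, 1025, 1006 and 836 at P70, with an interval from -0.05 to 0.34. Without P70 KO mouse 5 it was called higher in KO mice, at 0.32.

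**Figure D3:**
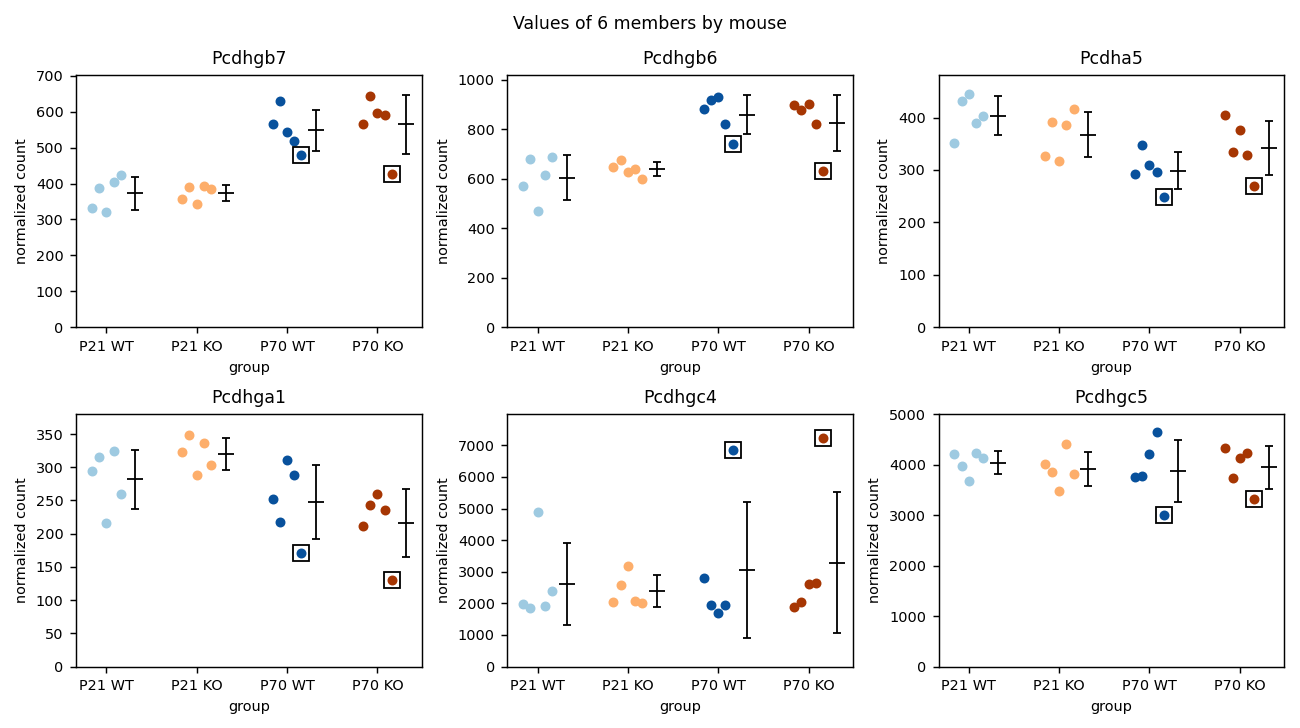
Normalized counts of 6 members in each mouse, by group, with the mean ± SD (n = 5) beside the points; open squares mark the P70 mice numbered 5. Pcdhgb7 is higher in every P70 mouse than in any P21 mouse of its genotype, and Pcdhgc4 in the marked mice is 6838 and 7228.

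The age difference was ordered along the alpha cluster, and less closely along the gamma cluster. Among the 12 alpha alternates, from Pcdha1 at the 5′ end to Pcdha12 at the 3′ end, the P70 minus P21 difference had a Spearman correlation with position of 0.825 in WT and 0.888 in KO mice. The 9 members with a negative difference in each genotype were Pcdha1 to Pcdha9, and the 3 with a positive one were the 2 Pcdha11 IDs and Pcdha12. Some positive differences were smaller than their SE. In WT these were Pcdha11 (ENSMUSG00000007440) at 0.005 (SE 0.16) and Pcdha12 at 0.06 (SE 0.12). In KO it was Pcdha12 at 0.03 (SE 0.14). Leaving out some single mice gave 2 positive and 10 negative members, as without P21 WT mouse 1 in WT or P21 KO mouse 2 in KO. Without P21 KO mouse 5 the numbers in KO were 4 and 8. Without the P70 KO mouse numbered 5, Pcdha8 turned from -0.03 to 0.41 in KO mice. Among the 19 gamma alternates the correlation was 0.389 in WT and 0.682 in KO mice. In WT mice Pcdhga2 (0.36) and Pcdhga6 (0.29) had positive differences, whereas Pcdhgb4, which lies after both, had a negative one (-0.26). It was -0.349 and -0.479 among the 21 beta members. These coefficients are across genes that share a library, a genomic region and, within the alpha and gamma clusters, constant exons, so they are given as descriptions.

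The same order could be seen in single mice. With each member's deviation from its mean over the 20 mice, the correlation with position in the gamma alternates was negative in all 10 P21 mice (from -0.628 to -0.167) and positive in all 10 P70 mice (from 0.0298 to 0.716). In the alpha alternates it was negative in 9 of 10 P21 mice and positive in 9 of 10 P70 mice. In the beta cluster it was negative in 3 of the 10 P21 mice and 6 of the 10 P70 mice. Since deviations are taken from a common mean, a negative sign at 1 age goes with a positive one at the other.

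Over the 24 other settings that kept all 12 alpha alternates, the alpha coefficient ran from 0.685 to 0.874 in WT and from 0.776 to 0.916 in KO. Over 25 settings the gamma coefficient ran from 0.375 to 0.46 in WT and from 0.644 to 0.739 in KO. The beta coefficient ran from -0.464 to -0.0312 in WT and moved the most of these.

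**Figure D4:**
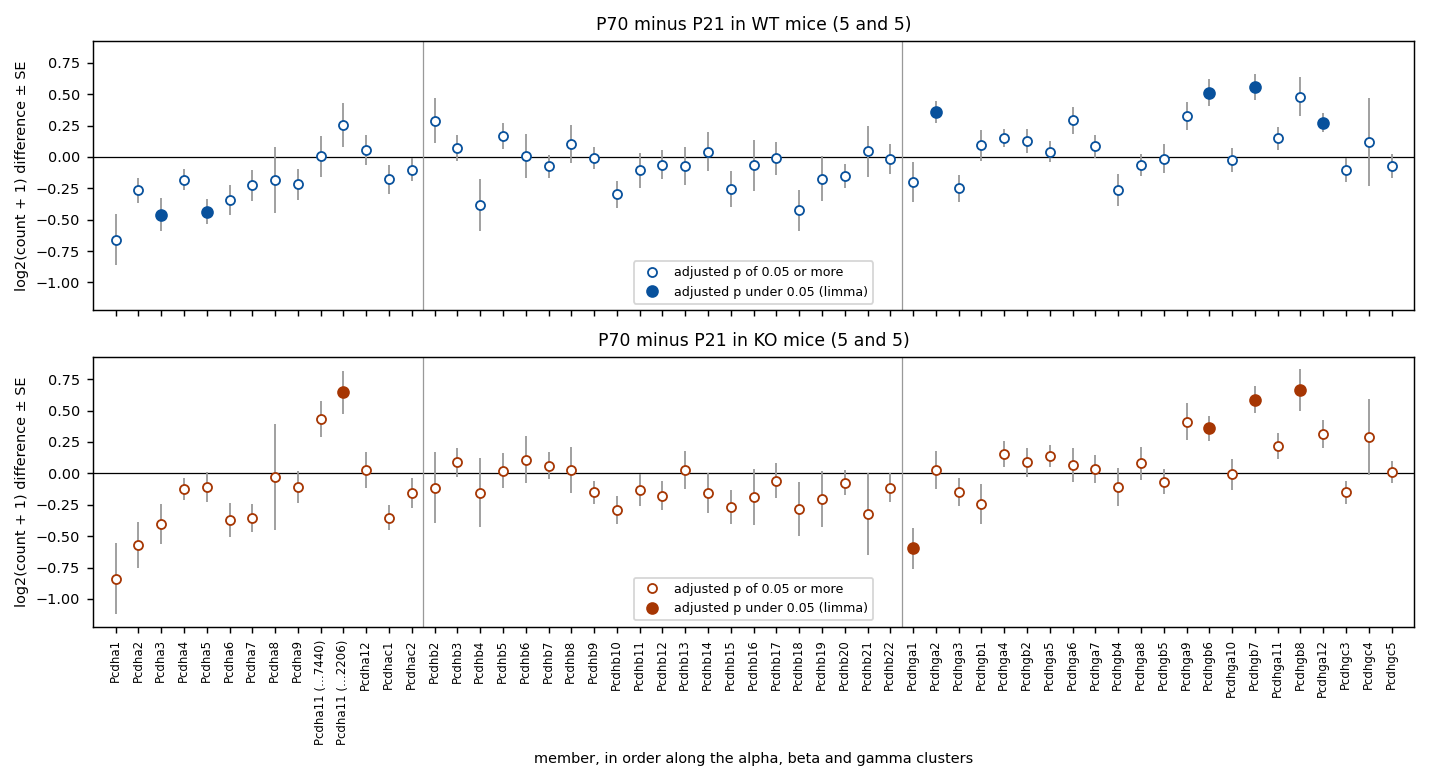
Difference between P70 and P21 in log2(normalized count + 1), ± SE, for the 57 members in order along the clusters, in WT mice (top) and KO mice (bottom); filled points have an adjusted p under 0.05. Early alpha members lie below 0 in both panels, down to -0.66 and -0.84 at Pcdha1, and the late gamma alternates Pcdhgb6, Pcdhgb7 and Pcdhgb8 lie above 0.

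Many of these calls depended on single mice. With each of the 10 mice left out in turn, Pcdha5, Pcdhgb6 and Pcdhgb7 in WT and Pcdhgb7 in KO were called 10 of 10 times. Pcdhgb6 in KO was called only without P70 KO mouse 5, and Pcdhga12 in WT only without P21 WT mouse 5 or P70 WT mouse 5. In WT, Pcdhga2 was called 5 of 10 times (lost without mouse 2 or 4 of either age or P21 mouse 3) and Pcdha3 4 of 10 times (called without P21 mouse 3 or P70 mouse 1, 3 or 5). In KO, Pcdha11 (ENSMUSG00000102206) was called 4 of 10 times (without mouse 1 or 5 of either age), Pcdhga1 3 of 10 times (without P70 mouse 2, 3 or 5) and Pcdhgb8 3 of 10 times (without P21 mouse 5 or P70 mouse 1 or 5). These differences kept their sign each time.

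Without both P70 mice numbered 5, more members passed, along with more of all genes. In WT, 7 members were then higher (Pcdhga2, Pcdhga6, Pcdhga9, Pcdhgb6, Pcdhgb7, Pcdhgb8 and Pcdhga12; 8.89% of all genes were) and 3 lower (Pcdha1, Pcdha3 and Pcdha5; 8.11% of all genes were). In KO, 8 were higher (both Pcdha11 IDs, Pcdhga9, Pcdhgb6, Pcdhgb7, Pcdhga11, Pcdhgb8 and Pcdhga12; 10.6% of all genes were) and 3 lower (Pcdha7, Pcdhac1 and Pcdhga1; 10.7% of all genes were). Every member called with all mice was called without these 2. Pcdhgb7 then differed by 0.60 in WT and 0.68 in KO, and Pcdhgb6 by 0.56 and 0.45, on the log2 scale. Pcdhga2 differed by 0.38 in WT, Pcdhga12 by 0.32, Pcdha3 by -0.39 and Pcdha5 by -0.37. In KO, Pcdhgb8 then differed by 0.76, Pcdha11 (ENSMUSG00000102206) by 0.58 and Pcdhga1 by -0.43. The beta cluster's median difference moved from -0.06 to 0.04 in WT and from -0.13 to 0.05 in KO, so no direction is given for the beta members as a group.

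No C-type member passed in either genotype with all mice. Pcdhgc5, known as a partner of the GABA-A receptor, measured 4215, 3966, 3677, 4225 and 4132 in P21 WT mice and 3747, 3783, 4209.9, 4643 and 3008 in P70 WT mice. The groups overlapped, and the 95% interval of the log2 difference ran from -0.29 to 0.14. In KO mice that interval ran from -0.18 to 0.20. Without the 2 mice Pcdhgc5 differed by 0.01 in WT and 0.07 in KO.

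Pcdhgc3 measured 4105, 3974, 3084, 3921 and 4069.8 in P21 WT mice and 4009.6, 3786, 3527, 3473 and 3025 in P70 WT mice, with an interval from -0.30 to 0.10 (log2 difference -0.05 without P70 WT mouse 5). Pcdhac2 was at 2001 ± 80.2 in P21 WT mice and 1877 ± 252 in P70 WT mice (SD, n = 5), with an interval from -0.30 to 0.10, and in KO mice from -0.41 to 0.11. Without the 2 mice its log2 difference was -0.01 in WT and -0.03 in KO. The markers of serotonin neurons, whose axons depend on Pcdhac2, were themselves lower at P70 in 2 of 4 tested genes in WT and in 1 of 4 in KO.

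Pcdhac1 measured 272, 233, 279, 272 and 264 in P21 KO mice and 219.9, 228, 210.0, 211 and 167 in P70 KO mice. These groups did not overlap, but the log2 difference of -0.35 (SE 0.10) had an adjusted p of 0.0523 by limma, and 0.0271 without the P70 KO mouse numbered 5. In WT mice the difference was -0.18 with a 95% interval from -0.43 to 0.07. For Pcdhgc4 the log2 difference was 0.12 in WT and 0.29 in KO with all mice, and -0.23 and -0.04 without the 2 mice, so its sign rested on them. Its interval with all mice ran from -0.64 to 0.88 in WT.

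Beta members have the most unique sequence, and none passed at either age comparison. The largest difference in WT was in Pcdhb18, which measured 252, 251, 216, 254 and 256 at P21 and 201, 213, 214, 198 and 111 at P70, without overlap (log2 difference -0.43, 95% interval -0.78 to -0.08, adjusted p = 0.123 by limma; -0.25 without P70 WT mouse 5). Pcdhb10 measured 130.4, 146, 113, 127 and 134 at P21 and 95.5, 113, 116, 101 and 103 at P70 (log2 difference -0.30, adjusted p = 0.113), and its difference in KO mice was -0.29. Pcdhb4, the lowest beta member per kb, was at 72.1 ± 13.3 and 56.1 ± 14.5 (SD, n = 5) in WT. Pcdhb17, the highest, was at 459 ± 31.7 and 462 ± 86.8. Over the 21 beta members, the log2 differences ran from -0.43 to 0.29 in WT and from -0.32 to 0.11 in KO.

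Across all 57 members, the age difference had the same sign in WT and KO mice for 49 (86%), compared with 80% of 17437 genes tested in both. The Pearson correlation across members was 0.782 and that across all genes was 0.72. By cluster, the signs were shared by 14 of 14 alpha, 16 of 21 beta and 19 of 22 gamma members. Without both P70 mice numbered 5 the sign was shared by 47 of 57 members (82.5%) and by 78.9% of all genes, with Pearson correlations of 0.761 and 0.688. By cluster it was then shared by 13 of 14 alpha, 14 of 21 beta (66.7%) and 20 of 22 gamma members.

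The study's own question was whether loss of Katnal2 changes brain transcripts at either age. No member passed in the limma fits of KO against WT mice at P21 or P70. No gene of the table did either (0% of 17610 and of 17613 genes). The study itself, with DESeq2 and a fold-change limit, reported some differentially expressed genes at both ages, and also changes in gene sets. Its test differs from the one used here, so the absence of calls here does not contradict those reports. At an unadjusted p under 0.05, 4 members were lower in KO mice at P21 and none was higher, whereas 0.948% of all genes were lower and 1.49% higher at that level. At P70, 1 member was lower (0.539% of all genes were) and none higher (0.59% of all genes were). These comparisons share their mice with the age comparisons above.

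At P21 the 4 members were Pcdha4, Pcdha8, Pcdhb7 and Pcdhga3. Pcdhb7 measured 234, 219, 212, 236 and 229 in WT and 211, 174, 179.7, 192 and 208 in KO mice. All KO mice were below all WT mice, as for 0.204% of all genes (no member was higher without overlap, where 0.256% of all genes were), and the log2 difference was -0.23 (SE 0.08, 95% interval -0.40 to -0.06, adjusted p = 1.00 by limma). Pcdhga3 measured 755, 879, 700.1, 866 and 831 in WT and 683, 656, 629, 784 and 727 in KO mice, with overlap and a log2 difference of -0.21 (95% interval -0.38 to -0.04).

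Pcdha4, the member with little unique sequence, measured 403, 389.8, 385, 475 and 417 in WT and 391, 329, 329, 392 and 378 in KO mice (log2 difference -0.19, 95% interval -0.36 to -0.01). Pcdha8 measured 47.8, 54.7, 30.4, 41.4 and 59 in WT and 27.8, 26.4, 30.8, 28.2 and 50.9 in KO mice, a log2 difference of -0.50 with an interval from -0.98 to -0.02. Pcdha8 is the lowest member, and its difference at P70 was -0.35 with an interval from -1.33 to 0.64 (0.0231 without both mice numbered 5). Of the 12 alpha alternates, 11 were lower in KO mice on the mean at P21 (median log2 difference -0.12) and 9 at P70 (median -0.06). Over all genes, 52.5% had a positive difference at P21 and 47.8% at P70. The alpha alternates share mice and constant exons, so they are not independent and these counts are a description.

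At P70 the member with an unadjusted p under 0.05 was Pcdha2, which measured 191, 234, 219, 230.2 and 194 in WT and 208, 159, 142, 213 and 107 in KO mice. The groups overlapped, with a log2 difference of -0.40 (95% interval -0.79 to -0.02, adjusted p = 1.00 by limma), and of -0.29 without both mice numbered 5. For the C-type members the KO minus WT intervals at P21 were from -0.09 to 0.12 for Pcdhac2, from -0.13 to 0.19 for Pcdhgc3 and from -0.19 to 0.08 for Pcdhgc5. They were wider at P70, from -0.35 to 0.28 for Pcdhac2 and from -0.79 to 1.04 for Pcdhgc4. Without both mice numbered 5 the P70 differences were -0.00291 for Pcdhac2 and 0.14 for Pcdhgc4.

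Over the 57 members, the half-width of the 95% interval had a median of 0.217 at P21 and 0.312 at P70 on the log2 scale. Without both P70 mice numbered 5 it was 0.222 at P70, and again no member passed. In that setting 1 gene of the whole table did. The log2 differences ran from -0.50 to 0.19 at P21 and from -0.40 to 0.31 at P70.

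The genotype difference at P70 was also correlated with position. The KO minus WT difference of the 19 gamma alternates had a Spearman correlation with position of 0.718 at P70 (0.749 without both mice numbered 5) and of -0.2 at P21. In the 12 alpha alternates it was 0.615 at P70 (0.594 without them) and -0.14 at P21. Over the other settings the P70 coefficient ran from 0.532 to 0.802 in the gamma alternates and from 0.329 to 0.643 in the alpha alternates, lowest in the latter without P70 WT mouse 3 or P70 KO mouse 2. Here too, several settings could not change the order. No single gamma member passed, and the largest positive difference among them was that of Pcdhgb8, 0.29 with a 95% interval from -0.00372 to 0.58 (0.34 without both mice). The P70 KO mice of this comparison are also those of the age comparison in KO mice.

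The age by genotype interaction asked whether the age change differed between KO and WT mice. It passed for no member and for no gene of the table, and none of the 57 had an unadjusted p under 0.05, where 1.68% of all genes did. The nearest were Pcdha5, with a difference of 0.33 between the age changes (95% interval -0.000813 to 0.66, unadjusted p = 0.0505 by limma; 0.35 without both P70 mice numbered 5, unadjusted p = 0.0172), and Pcdha11 (ENSMUSG00000007440), with 0.43 (95% interval -0.04 to 0.89). Pcdha5 measured 327, 391, 318, 385 and 417 in P21 KO mice and 404, 335, 376, 328 and 269 in P70 KO mice, which overlapped, while the WT groups did not. Members called in 1 genotype alone were thus not shown to differ between genotypes.

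**Figure D5:**
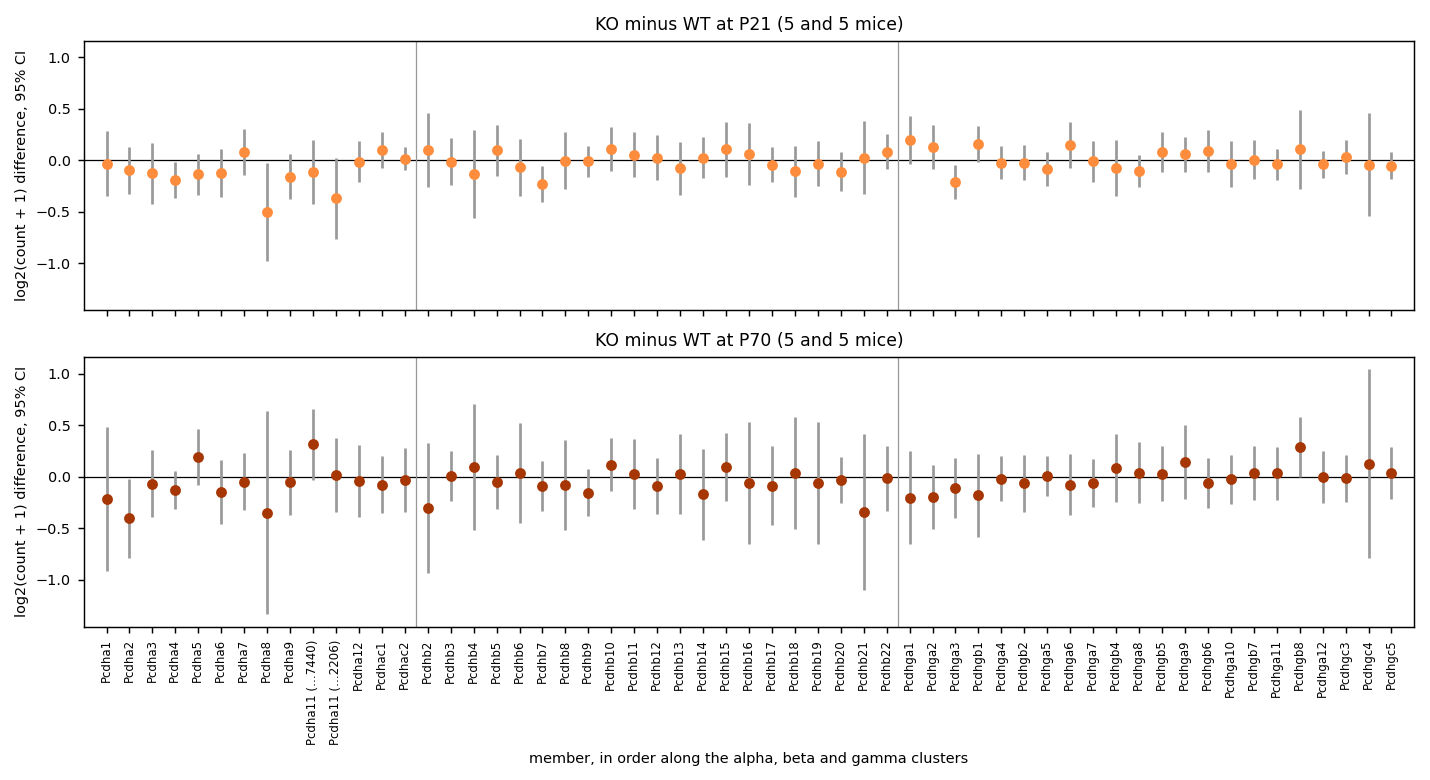
Difference between KO and WT mice in log2(normalized count + 1), with its 95% interval, for the 57 members at P21 (top) and P70 (bottom), 5 and 5 mice each. Most intervals include 0, and those at P70 are wider, with Pcdhgc4 reaching from -0.79 to 1.04.

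Members varied together between mice of the same group. After subtracting group means, the mean pairwise correlation over the 20 mice was 0.332 within the alpha cluster, 0.471 within the beta cluster and 0.421 within the gamma cluster, compared with 0.000318 over all genes tested. Normalization holds the mean over all genes near 0. Gene sets of like length, GC content or cell type were not compared, so these values do not show a trait particular to the members. Between clusters the mean was similar, at 0.401 for alpha with beta, 0.366 for alpha with gamma and 0.449 for beta with gamma members. Without both P70 mice numbered 5 the means within clusters were 0.113, 0.159 and 0.196. Those between clusters were then 0.139, 0.132 and 0.185, so the shared variation was not particular to a cluster. Some pairs varied in opposite directions, and the lowest correlation over the 20 mice was -0.869 for a gamma pair and -0.931 for a beta and gamma pair. Without the 2 mice the lowest were -0.716 and -0.812.

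Genes that act with the clusters were read from the same fits. The 12 non-clustered protocadherins listed are single genes outside the clusters. In WT 11 of them were tested, and in KO all 12. Only Pcdh1 passed, at 0.32 in WT and 0.37 in KO on the log2 scale (adjusted p = 0.0109 and 0.00404 by limma). Its mean went from 4681 ± 399 at P21 to 5836 ± 243 at P70 in WT mice (SD, n = 5). Of 12 CTCF and cohesin genes, Mau2, a cohesin loader subunit, was lower at P70 in WT (-0.30, adjusted p = 0.0349) and no gene passed in KO. Of 13 genes of DNA methylation and H3K9 silencing, Dnmt3a, a de novo DNA methyltransferase, was lower in both (-0.49 in WT and -0.42 in KO, adjusted p = 0.00156 and 0.0252). It measured 4906, 5339, 4359, 5423 and 4496 in P21 WT mice and 3321, 3555, 3595, 3777 and 3215 in P70 WT mice.

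Of 23 genes for cytoplasmic partners and cleavage, 3 were higher and 2 lower at P70 in WT, and 1 was higher and 2 lower in KO. Fyn, a kinase that binds alpha proteins, was lower by 0.67 in WT and 0.69 in KO on the log2 scale, from 4444 ± 316 at P21 to 2788 ± 115 at P70 in WT mice (SD, n = 5). Marcks, an actin-binding target of protein kinase C in gamma-dependent dendrite growth, was lower by 0.45 and 0.43. Ptk2b, the kinase PYK2 that protocadherin constant domains bind and inhibit, was higher by 0.41 and 0.42. Axin1 and Cyfip2 passed in WT alone. No gene of these 4 lists passed in KO against WT mice or in the interaction.

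Cell type markers moved with age as well. In WT mice 7 of 8 oligodendrocyte markers, 4 of 5 markers of oligodendrocyte precursors, 5 of 8 of immature neurons and 5 of 5 of blood were lower at P70. In KO mice the numbers were 7, 3, 3 and 4. The summed oligodendrocyte markers ran from 396803 to 447184 in P21 WT and from 168891 to 192689 in P70 WT mice. Of 10 neuron markers 1 was higher and 1 lower in each genotype, and the 6 astrocyte markers gave no call. The part of these differences in the protocadherin values was not tested. When all mice were scaled to the neuron markers, 7 members were higher and 1 lower in WT, and 6 higher and none lower in KO, and Pcdhgb6 and Pcdhgb7 remained higher in both. That scaling raised the share of all genes called higher as well, to 9.13% in WT and 6.97% in KO, with 3.05% lower in each, and it moved the median difference of all genes to 0.0837 and 0.0662.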

How the data were processed

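RNA-Seq of 20 whole brains (TruSeq RNA Sample Prep Kit v2, poly-A selection) was analysed. The authors quantified GRCm38 transcripts with Salmon, corrected for GC bias, and brought the estimates through tximport into DESeq2 for normalization. The submitters' processing notes name Salmon 1.1.0, DESeq2 1.26.0 and R 3.6.2, whereas the study's methods name other versions of R and DESeq2. The deposited signal values are these normalized counts for 19463 genes, normalized over all 20 mice together. Sequencing depth is not given by them, so no count test was run. Each column name was traced to 1 sample title, and groups came from the sample labels. Symbols and gene models came from GENCODE M21 (19447 IDs matched). limma 3.58.1 in R 4.3.3 (lmFit, eBayes with an intensity trend) was fitted to log2(value + 1) over all genes averaging at least 10, and p-values were two-sided, adjusted by Benjamini-Hochberg and called under 0.05. Each comparison used its own 10 mice and the interaction all 20. Differences on this scale understate low genes. Members, gene lists and tests were chosen with earlier results of these data known. The text names the C-type members, in each other subclass the 3 largest WT age differences and the highest and lowest level per kb, members with an unadjusted p under 0.05 for genotype, and in each further list the 2 largest age differences called in both genotypes; other members are named to account for calls, after their values were seen, as were Ptk2b, Mau2, Axin1 and Cyfip2. Levels per kb divide by the longest protein-coding transcript. The fit was tested on simulated data. Same-numbered mice are different animals, no shared preparation day is given, and not every same-numbered pair correlated above 0.1 (0.0749 to 0.705 between genotypes at P70, highest for the mice numbered 5), so they were not treated as paired. Alternatives changed the normalization, filter, pseudocount, design, threshold, length and GC correction, or left out each mouse; leaving out both P70 mice numbered 5 was added after seeing the data.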

Additional observations from a re-analysis of the deposited data

Results flagged for a closer look

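In groups of 5 mice, a mouse was singled out when its gap to the nearest other mouse exceeded 0.71 of the group's range (Dixon's 95% criterion). This was applied to the members named by rule and to the cluster sums and C-type share, 120 sets of 5 values in all, and 23 values met it. Chance alone marks about 1 in 20 such sets. The sets are not independent of each other, since members share mice.

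P70 WT mouse 5 was high for Pcdhgc4 (6838) and low for Pcdha1 (42.3), Pcdha12 (384), Pcdhac2 (1435), Pcdhb17 (309) and Pcdhb18 (111). Its alpha cluster sum (3979) and beta cluster sum (3084) were also low. P70 KO mouse 5 was high for Pcdhgc4 (7228) and for the C-type share of the members' counts (54.1%). It was low for Pcdha12 (361), Pcdhac2 (1283), Pcdhb17 (292), Pcdhb18 (102) and Pcdhga11 (758), as well as for the alpha cluster sum (3771) and the beta cluster sum (2780.2).

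P21 WT mouse 3 was high for Pcdhgc4 (4886) and for the C-type share (48.2%), and low for Pcdhgc3 (3084) and Pcdhb18 (216). In P21 KO mouse 5 Pcdha8 was high (50.9), and in P70 KO mouse 4 Pcdha4 was high (374). No member's age change differed between the genotypes by the interaction test.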

How the results depend on the processing

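In WT mice 6 members were called with age and in KO mice 5. Leaving out 1 mouse at a time, the numbers ran from 3 to 10 and from 1 to 11, and without both P70 mice numbered 5 they were 10 and 11. In the fits without 1 mouse, 2.35% to 8.89% of all genes were higher and 2.83% to 8.11% lower in WT. In KO these shares were 2.33% to 10.6% and 2.76% to 10.7%. Length and GC correction gave 12 and 9, with 8.96% of all genes higher and 8.09% lower in WT and 9.67% and 7.95% in KO, and 1 fit of all 20 mice gave 3 and 10, with 5.52% and 5.63% in WT and 5.47% and 6.41% in KO. At an unadjusted p under 0.05 the numbers were 15 and 15 (24.5% and 22.7% of all genes), and at an adjusted p under 0.01 they were 1 and 1. The share of all genes at that last threshold is not given here. Without the intensity trend 2 members passed in KO, where 3.28% of all genes were higher and 4.05% lower. The replicate block, although the numbers were not taken to pair mice, gave 4 in WT, 3 of them among the 6, and 1 in KO, and 7 and 8 with length and GC correction. With the block, 3.63% of all genes were higher and 3.55% lower in WT, and 2.26% and 2.91% in KO. With length and GC correction added, the shares were 7.2% and 6.63% in WT and 7.51% and 6.52% in KO. Pcdha5, Pcdhgb6 and Pcdhgb7 in WT and Pcdhgb7 in KO passed in all 25 alternatives that kept the rule for calls. Pcdhgb6 in KO passed in 14 of 25. KO against WT gave 4 members at P21 and 1 at P70 at an unadjusted p under 0.05, and otherwise 0 members, as did the interaction. Of 669 values of named members under an alternative, 618 kept their direction and side of the threshold and 13 changed sign, all in differences that were not called. Most of the differences counted were not called to begin with, and several alternatives cannot change a difference, so this count does not measure stability. For Pcdhb17 in WT the sign changed under quantile normalization (0.00436), neuron marker scaling (0.0702), length and GC correction (0.0283, and 0.0283 with the block) and without P21 WT mouse 4 (0.0154) or P70 WT mouse 5 (0.127, the same without both mice), and leaving out 1 mouse gave -0.0549 to 0.127. Leaving out 1 mouse moved Pcdhgc4 in WT from 0.37 to -0.23 (the latter without P70 WT mouse 5), Pcdhgc5 in WT from -0.14 to 0.015 (without that mouse, and 0.00995 under neuron marker scaling) and Pcdha8 in WT from -0.32 to 0.0231 (without P70 WT mouse 3). The cause was not tested. No other normalization moved the median of all genes by over 0.1. The unknown sequencing depth limits the low members most.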
